A study of Homo sapiens with 9 samples.

Results

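Most of the 35 genes described here encode enzymes of cholesterol synthesis from acetyl-CoA to cholesterol, proteins that sense sterols, or main enzymes of fatty acid synthesis and desaturation. The rest encode proteins that move sterols within or out of the cell, and MYLIP, a ubiquitin ligase for lipoprotein receptors. All 35 were picked by symbol from 58233 gene IDs, and each symbol matched 1 row in each table. The cells were TC32, an established line derived from Ewing sarcoma, grown in RPMI medium with 10% fetal bovine serum. Polyadenylated RNA was sequenced with a stranded kit from 9 libraries in 3 groups of 3. Inhibitor cells had Wnt3a for 28 h, joined after 4 h by SB-505124, an inhibitor of the type I receptor kinases for TGF-β and activin, for the remaining 24 h. Wnt3a cells had the same 28 h of Wnt3a with DMSO in place of the inhibitor. Vehicle cells had PBS and then DMSO. SB-505124 was in no group given without Wnt3a, and nothing in the labels ties the 3 libraries of a group to separate cultures, so the p-values rest on a spread that may be technical.

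Cells make cholesterol from acetyl-CoA through mevalonate, farnesyl diphosphate, squalene and lanosterol. Transcription of these enzymes is known to be driven by the SREBP factors, membrane proteins that SCAP escorts from the endoplasmic reticulum to the Golgi for cleavage when sterols are low, and that INSIG proteins hold back when sterols are plentiful. The product of SREBF2 is known mainly for sterol genes and that of SREBF1 for fatty acid genes. When oxysterols rise, LXR receptors switch on a different set that includes ABCA1, ABCG1 and MYLIP.

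Library depth was 28844348 to 42976799 expected counts. All 8 Ewing sarcoma markers checked were among the 17880 genes tested, with a summed level of 2478 to 3080 CPM in inhibitor cells, 3333 to 4344 CPM in Wnt3a cells and 3819 to 4650 CPM in vehicle cells (CPM is counts per 1e6 counts of a library, scaled by TMM). Of 5 hepatocyte and 6 adipocyte markers, 0 and 1 passed the low-count filter. That 1 was FABP4, at 5.65, 1.4 and 0.991 CPM in inhibitor cells, 0.963, 0.357 and 0.341 CPM in Wnt3a cells and 0.562, 0.267 and 0.563 CPM in vehicle cells, while LEP had 0 counts in every library. All 5 fibroblast markers passed the filter, with a summed level of 62.4 to 79.4 CPM in inhibitor cells, 119 to 189.5 CPM in Wnt3a cells and 72.9 to 90.2 CPM in vehicle cells. Of 4 leukocyte, 4 endothelial and 4 epithelial markers, 1, 1 and 3 passed, with a summed level of at most 2.85 CPM for any of these lists in any library, and the leukocyte marker CD3E had 0 counts in every library. The part of these marker levels in the results was not tested. Inhibitor replicate 1 stood apart from the other inhibitor replicates, with a correlation of 0.985 to each against 0.996 between them. TMM factors ran over 0.876 to 0.914 for the inhibitor group and 1.02 to 1.10 for the rest, and the 35 genes held 0.510% to 0.547% of all counts in inhibitor cells, 0.667% to 0.719% in Wnt3a cells and 0.710% to 0.764% in vehicle cells. Exon positions were shared with a gene on the opposite strand by 15 of the 35 genes, among them ACAT2 with TCP1, MVK with MMAB and NPC1 with RMC1. The strand setting of the counting is not given in the sources used here, so reads of such pairs may be split between them.

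In inhibitor against Wnt3a cells, 27 of the 35 genes passed an edgeR adjusted p of 0.05, or 77.1%, where 50.4% of all genes tested did. Of these, 11 rose and 16 fell, beside 24.5% and 25.9% of all genes, and 8 did not pass. Of these 27, ABCA1 and ABCG1 rest on few counts and did not pass the low-count filter in all 3 groups, and over the other 33 genes 25 passed, 10 higher and 15 lower. The falls included ACAT2 and FDPS of the mevalonate steps, SQLE and LSS on the way to lanosterol, and ACLY, ACACA, FASN, ELOVL6 and SCD of fatty acid synthesis. The rises included SREBF2, SCAP and INSIG1, the sterol enzymes MSMO1 and SC5D, and NPC1 and MYLIP of sterol and lipoprotein handling. Among the genes named here, FASN, SCAP, INSIG1 and SC5D did not pass in some of the 21 alternatives given below. The median log2 fold change was -0.17 over the 35 genes and -0.06 over all genes. Of the 35 genes, 7 passed and differed by at least 2-fold, ABCA1 and ABCG1 among them, where 22.3% of all genes did. Of the other 33 genes, 5 did. Libraries of these groups did not overlap for 29 of the 35 genes, 14 higher and 15 lower, beside 58.1% of all genes, 27.8% higher and 30.3% lower. Without ABCA1 and ABCG1 this held for 27 of 33 genes, 13 higher and 14 lower. With each library left out in turn, 24 to 30 genes passed, 10 to 13 higher and 13 to 17 lower. The highest count came without inhibitor replicate 1, at 30 genes, 13 higher and 17 lower. In bulk RNA, fewer cells of a kind and less RNA per cell cannot be told apart.

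**Figure D1:**
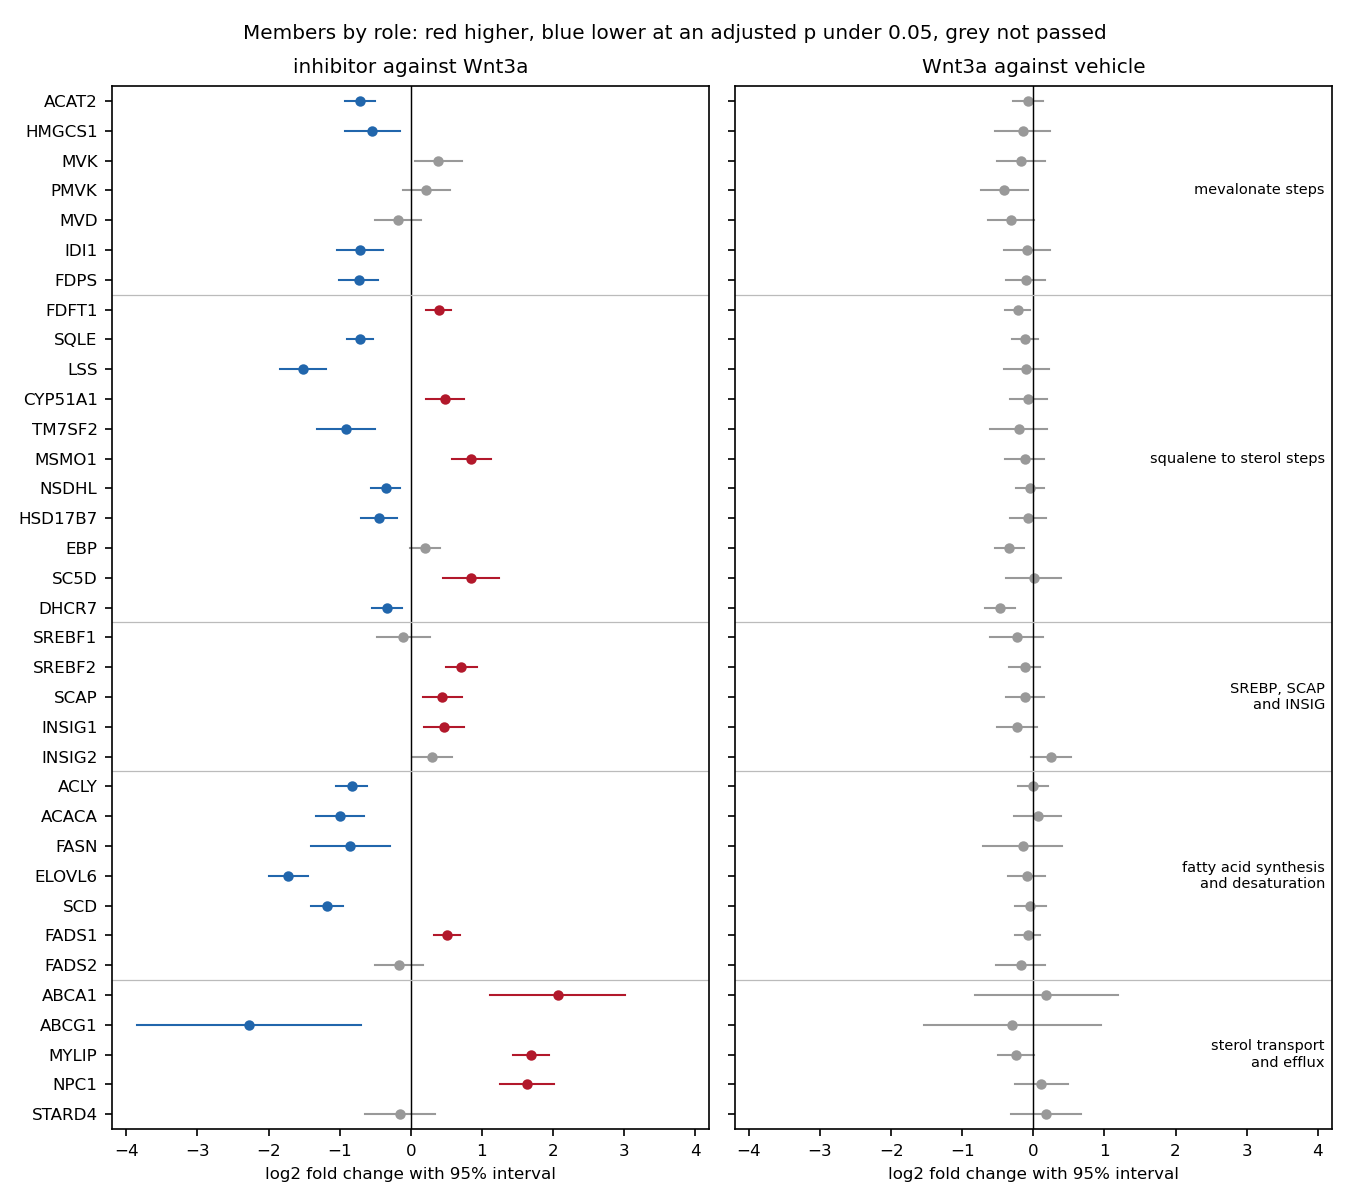
Log2 fold change of each of the 35 genes (points) with its 95% interval (lines), in inhibitor against Wnt3a cells (left) and Wnt3a against vehicle cells (right), 3 libraries per group and genes ordered by role. On the left 11 genes are red (higher) and 16 blue (lower), with values from -2.27 to 2.07 that belong to the thinly counted ABCG1 and ABCA1, and on the right all 35 are grey (not passed), between -0.47 and 0.24.

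Of the 7 enzymes of the mevalonate steps, 4 fell and 0 rose, or 57.1%, beside 50.4% of all genes that passed in either direction. ACAT2, which condenses acetyl-CoA in the cytosol, had 80.0, 91.0 and 84.8 CPM in inhibitor cells, 154, 139.6 and 127 CPM in Wnt3a cells and 149, 152 and 141 CPM in vehicle cells. All 3 inhibitor libraries lay below the other 6, and ACAT2 fell by 0.72 on the log2 scale (SE 0.0956, edgeR adjusted p = 0.000200). HMGCS1, which makes HMG-CoA, had 222, 149 and 144 CPM in inhibitor cells, 221, 249 and 278 CPM in Wnt3a cells and 288, 238 and 305 CPM in vehicle cells. Inhibitor replicate 1 lay within the Wnt3a range and the other inhibitor libraries below it. HMGCS1 fell by 0.54 on the log2 scale (SE 0.173, edgeR adjusted p = 0.0245), a call lost when Wnt3a replicate 2 or 3 or inhibitor replicate 2 or 3 was left out (edgeR adjusted p of 0.0588 to 0.0967) and with an offset for effective length (0.0638).

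IDI1, which isomerises the isoprene unit, had 112, 75.5 and 79.3 CPM in inhibitor cells, 153, 141 and 144 CPM in Wnt3a cells and 167, 140.1 and 159 CPM in vehicle cells. Inhibitor replicate 1 was the highest of its group and still below the other 6 libraries, and IDI1 fell by 0.72 on the log2 scale (SE 0.146, edgeR adjusted p = 0.00249). FDPS, which makes farnesyl diphosphate, the branch point to sterols and prenyl groups, had 220.2, 244 and 244 CPM in inhibitor cells, 418, 416 and 339 CPM in Wnt3a cells and 385, 490.3 and 389 CPM in vehicle cells. Every inhibitor library was below every other one, and FDPS fell by 0.73 on the log2 scale (SE 0.123, edgeR adjusted p = 0.000819). The kinases MVK and PMVK and the decarboxylase MVD, which act between HMG-CoA and the isoprene unit, did not pass. Their log2 fold changes were 0.39 (SE 0.151, edgeR adjusted p = 0.053) for MVK, 0.22 (SE 0.146, edgeR adjusted p = 0.23) for PMVK and -0.18 (SE 0.146, edgeR adjusted p = 0.325) for MVD. The low values of PMVK lay in inhibitor replicate 1, at 62.1, 87.3 and 97.2 CPM over the inhibitor libraries against 69.9, 65.5 and 76.1 CPM in Wnt3a libraries. Without that library PMVK rose by 0.39 (edgeR adjusted p = 0.00655) and MVK by 0.46 (edgeR adjusted p = 0.0373). MVK passed as higher in 8 of the 21 alternatives, among them DESeq2 (adjusted p = 0.0278) and the replicate block (edgeR adjusted p = 0.0225). MVD passed as lower in 4, at -0.44 with library totals alone (edgeR adjusted p = 0.0438) and -0.60 with log2(TPM + 1) (limma adjusted p = 0.0128).

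Of the 11 enzymes from squalene to cholesterol, 4 rose and 6 fell, or 90.9%, beside 50.4% of all genes. Both directions occurred before and after lanosterol. FDFT1, the squalene synthase, had 813, 728 and 737 CPM in inhibitor cells, 575, 571 and 592 CPM in Wnt3a cells and 666, 689.5 and 667 CPM in vehicle cells. Its inhibitor libraries were above the other 6, and FDFT1 rose by 0.39 on the log2 scale (SE 0.0782, edgeR adjusted p = 0.00222). It did not pass with library totals alone, at 0.14 (edgeR adjusted p = 0.157), or with log2(TPM + 1), at 0.10 (limma adjusted p = 0.257). SQLE, which epoxidises squalene, had 147, 146 and 146 CPM in inhibitor cells, 236, 242 and 241 CPM in Wnt3a cells and 264, 239.9 and 276 CPM in vehicle cells. The inhibitor libraries were almost equal and below all others, and SQLE fell by 0.71 on the log2 scale (SE 0.0804, edgeR adjusted p = 7.54e-05). LSS, which closes the rings to form lanosterol, had 59.4, 58.1 and 62.8 CPM in inhibitor cells, 181, 196 and 139.9 CPM in Wnt3a cells and 160.3, 217 and 177 CPM in vehicle cells. Groups did not overlap, and LSS fell by 1.52 on the log2 scale (SE 0.146, edgeR adjusted p = 3.03e-05), the largest fall among the 18 sterol enzymes. In hg38, as GENCODE release 29 annotates it, LSS (ENSG00000160285.14) spans positions 46188141 to 46228824 of chromosome 21 on the minus strand.

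Past lanosterol, CYP51A1, the lanosterol demethylase, had 209.8, 218 and 207 CPM in inhibitor cells, 144, 141 and 169.7 CPM in Wnt3a cells and 172, 134 and 171 CPM in vehicle cells. All inhibitor libraries exceeded the others, and CYP51A1 rose by 0.48 on the log2 scale (SE 0.117, edgeR adjusted p = 0.00664). It did not pass with library totals alone, at 0.23 (edgeR adjusted p = 0.0747), or with log2(TPM + 1), at 0.15 (limma adjusted p = 0.359). MSMO1, which oxidises the methyl groups that are then removed, had 294, 264 and 227 CPM in inhibitor cells, 139.6, 138 and 157 CPM in Wnt3a cells and 176, 137 and 159 CPM in vehicle cells. The lowest inhibitor library was above the highest of the other 6, and MSMO1 rose by 0.85 on the log2 scale (SE 0.125, edgeR adjusted p = 0.000338). SC5D, which desaturates lathosterol, had 71.8, 74.2 and 60.7 CPM in inhibitor cells, 35.7, 33.0 and 45.8 CPM in Wnt3a cells and 43.7, 28.8 and 41.7 CPM in vehicle cells. There was again no overlap, and SC5D rose by 0.85 on the log2 scale (SE 0.176, edgeR adjusted p = 0.0027). On the TPM scale the groups did overlap, at 42.1 to 60.1 TPM in inhibitor cells against 37.5 to 45.3 TPM in Wnt3a cells, and with log2(TPM + 1) SC5D did not pass, at 0.35 (limma adjusted p = 0.146).

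Falls in the same stretch were smaller except for TM7SF2. TM7SF2, a sterol reductase whose step the lamin B receptor can also carry out, had 19.5, 29.6 and 34.4 CPM in inhibitor cells, 46.2, 58.6 and 52.7 CPM in Wnt3a cells and 58.2, 65.2 and 58.1 CPM in vehicle cells. It fell by 0.91 on the log2 scale (SE 0.183, edgeR adjusted p = 0.00221), with no overlap between groups. TM7SF2 shares exon positions with VPS51 on the same strand, and reads of the pair may be split between them. NSDHL and HSD17B7, which act with MSMO1 in removing the methyl groups, were also lower in every inhibitor library. NSDHL had 38.6, 39.9 and 34.7 CPM in inhibitor cells, 47.7, 51.0 and 45.8 CPM in Wnt3a cells and 48.9, 50.5 and 50.2 CPM in vehicle cells and fell by 0.35 on the log2 scale (SE 0.0904, edgeR adjusted p = 0.00878). HSD17B7 had 22.2, 23.1 and 24.4 CPM in inhibitor cells, 32.6, 34.6 and 28.0 CPM in Wnt3a cells and 30.1, 34.6 and 35.9 CPM in vehicle cells and fell by 0.45 on the log2 scale (SE 0.115, edgeR adjusted p = 0.00829), and its copy HSD17B7P2 held 469, 681 and 663 counts over the inhibitor, Wnt3a and vehicle libraries, beside 2107, 4065 and 3901 for HSD17B7.

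DHCR7, the reductase that ends a main branch of the pathway, had 134, 152 and 157 CPM in inhibitor cells, 188, 177 and 192 CPM in Wnt3a cells and 236, 262 and 272 CPM in vehicle cells. Its 3 groups did not overlap, with inhibitor cells lowest and vehicle cells highest. It fell by 0.33 on the log2 scale (SE 0.0943, edgeR adjusted p = 0.0148), and with an offset for effective length the edgeR adjusted p was 0.103. EBP, a sterol isomerase, had 66.9, 67.1 and 70.8 CPM in inhibitor cells, 63.3, 58.1 and 56.7 CPM in Wnt3a cells and 69.5, 82.1 and 73.5 CPM in vehicle cells and did not pass, at 0.20 (SE 0.0921, edgeR adjusted p = 0.093), but passed with DESeq2, at 0.22 (adjusted p = 0.049).

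**Figure D2:**
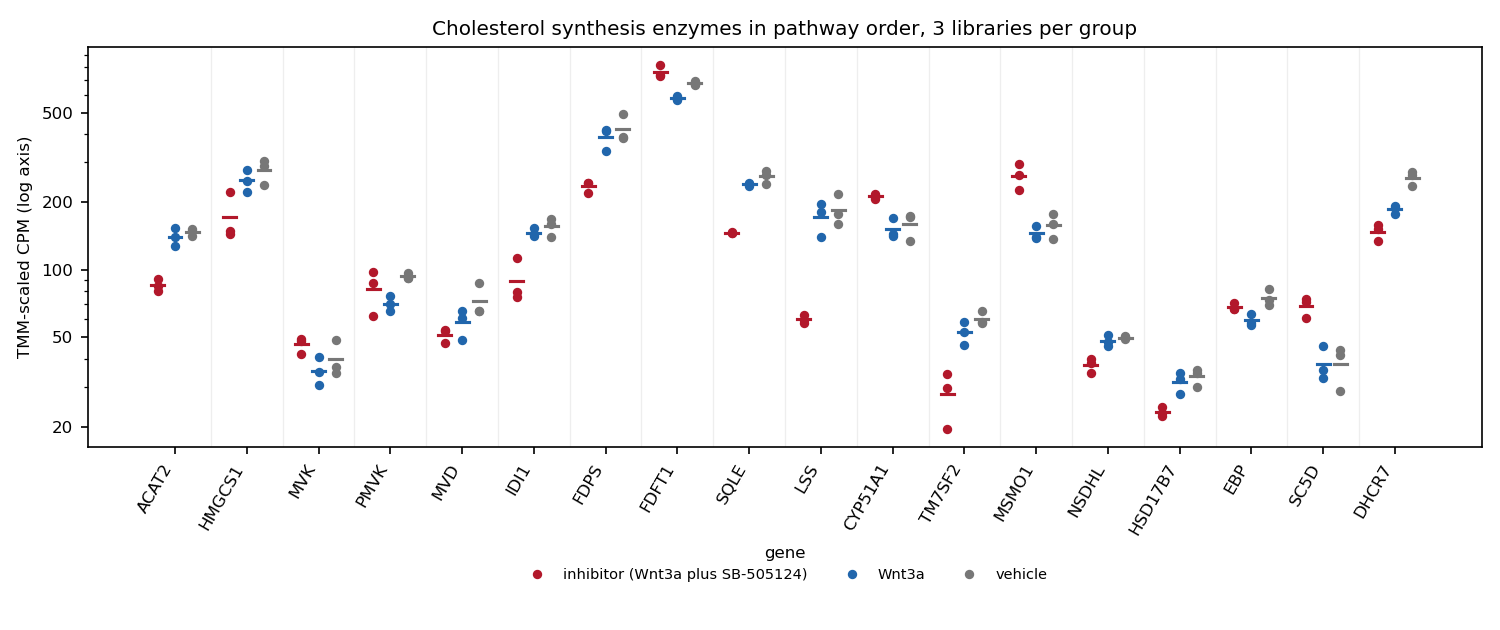
CPM of the 18 cholesterol synthesis enzymes in each library (points, log axis) with the group mean (bars), in pathway order from ACAT2 to DHCR7, for inhibitor, Wnt3a and vehicle cells from left to right within each gene. Inhibitor libraries lie below the others for LSS, SQLE and FDPS and above them for MSMO1, CYP51A1 and SC5D.

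Of the 5 genes that encode SREBP, SCAP and INSIG proteins, 3 rose and 0 fell, or 60%, beside 50.4% of all genes. SREBF2 had 530.0, 609 and 633 CPM in inhibitor cells, 337, 374 and 371 CPM in Wnt3a cells and 363, 411 and 404 CPM in vehicle cells. Inhibitor libraries stood well above the other 6, and SREBF2 rose by 0.71 on the log2 scale (SE 0.0976, edgeR adjusted p = 0.000233). SREBF2 (ENSG00000198911.11) spans positions 41833079 to 41907308 of chromosome 22 on the plus strand. SCAP had 85.8, 110.0 and 120.1 CPM in inhibitor cells, 75.8, 78.1 and 78.3 CPM in Wnt3a cells and 77.1, 90.4 and 84.3 CPM in vehicle cells. Its inhibitor libraries were above all Wnt3a libraries, though the lowest fell inside the vehicle range. SCAP rose by 0.45 on the log2 scale (SE 0.123, edgeR adjusted p = 0.0125), and the sign turned on the TPM scale, at -0.11 with log2(TPM + 1). Leaving out inhibitor replicate 3 also ended the call (edgeR adjusted p = 0.0525), as did scaling by library totals alone (0.204) and the length offset (0.145).

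INSIG1 had 98.0, 82.7 and 81.8 CPM in inhibitor cells, 59.1, 63.3 and 67.2 CPM in Wnt3a cells and 80.2, 60.9 and 81.0 CPM in vehicle cells. The inhibitor libraries lay just above all others, and INSIG1 rose by 0.47 on the log2 scale (SE 0.127, edgeR adjusted p = 0.0116), a call lost under library totals alone, at 0.22 (edgeR adjusted p = 0.157), and with log2(TPM + 1), at 0.20 (limma adjusted p = 0.176). SREBF1 had 35.4, 48.3 and 54.9 CPM in inhibitor cells, 44.9, 56.6 and 47.3 CPM in Wnt3a cells and 52.7, 67.6 and 54.6 CPM in vehicle cells, with overlapping groups and a log2 change of -0.10 (SE 0.168, edgeR adjusted p = 0.635). INSIG2 had 15.3, 15.8 and 14.5 CPM in inhibitor cells, 13.1, 11.9 and 12.0 CPM in Wnt3a cells and 11.8, 9.74 and 9.75 CPM in vehicle cells, higher in every inhibitor library than in any other, but its log2 change of 0.30 (SE 0.126, edgeR adjusted p = 0.0694) did not pass, and passed with DESeq2 at 0.32 (adjusted p = 0.033).

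Promoter windows from RefSeq (GRCh38.p14, 250 bases before to 50 after the start site) were available for 30 of the 35 genes. ABCG1, ACAT2, FASN, FDFT1 and SQLE had none in that set. Windows were searched on both strands for 7 motifs. Of these, CACNCCAC lies within TCACNCCAC, the general form of a sterol response element, TCACCCCAC is a fixed form of it, TCANNNCAC is a looser form, and CACGTG, the E-box, lies within TCACGTGA. The CCAAT box, CCAAT, can flank any of them. CCAAT occurred in 21 of the 30 genes, 70.0%, and in 39.7% of all 27305 genes with a window. It was present in 11 of the 12 genes with a window that fell, 5 of the 10 that rose and 5 of the 8 that did not pass. The 10 that rose include ABCA1, which rests on few counts and passed the low-count filter in the inhibitor group alone. ABCA1 is not among these 5, but is part of both counts of 4 of the 10 given next. CACGTG was in 1 of the 12, 4 of the 10 and 0 of the 8, CACNCCAC in 3, 4 and 0, and TCANNNCAC in 1, 2 and 0, while each of the other 3 motifs was in 1 gene, which rose. TCACNCCAC occurred in 1 gene, SREBF2, at 3.3% beside 1.39% of all genes, and that match has the letters TCACCCCAC, which 0.53% of all genes hold. CACNCCAC occurred in 7 genes, 23.3% beside 7.05%, TCANNNCAC in 3, 10.0% beside 14.3%, CACGTG in 5, 16.7% beside 8.77%, and TCACGTGA in 1, 3.3% beside 1.18%. A gene with several windows was counted once if any held the motif, and a match describes letters only.

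The sequences of 6 windows are given for genes with large changes or a listed motif, chosen after their values and matches were seen, with matches to TCACNCCAC, CACGTG and CCAAT on either strand in capitals. LSS (chr21:46228725-46229024, minus strand) and MSMO1 (chr4:165327419-165327718, plus strand) are sterol steps that moved apart. SREBF2 (chr22:41832855-41833154, plus strand) holds the sterol element match, 133 bases before the start site. ELOVL6 (chr4:110198566-110198865, minus strand) and SCD (chr10:100346983-100347282, plus strand) had the largest falls among fatty acid genes, and MYLIP (chr6:16128836-16129135, plus strand) rose. MSMO1, which rose, held 4 CCAAT matches and ELOVL6, which fell, held 0.
LSS: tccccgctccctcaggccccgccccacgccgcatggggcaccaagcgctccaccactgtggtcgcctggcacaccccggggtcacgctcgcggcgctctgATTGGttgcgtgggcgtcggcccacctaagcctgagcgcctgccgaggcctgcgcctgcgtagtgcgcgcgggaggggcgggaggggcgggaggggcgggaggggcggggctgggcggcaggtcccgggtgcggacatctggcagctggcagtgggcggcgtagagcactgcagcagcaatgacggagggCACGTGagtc
MSMO1: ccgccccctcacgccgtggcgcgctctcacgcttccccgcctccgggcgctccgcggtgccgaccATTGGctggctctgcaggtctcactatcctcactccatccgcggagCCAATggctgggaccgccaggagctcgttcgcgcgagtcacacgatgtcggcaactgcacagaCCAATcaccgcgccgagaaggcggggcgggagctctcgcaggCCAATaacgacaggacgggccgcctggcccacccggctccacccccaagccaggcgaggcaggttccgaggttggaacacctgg
SREBF2: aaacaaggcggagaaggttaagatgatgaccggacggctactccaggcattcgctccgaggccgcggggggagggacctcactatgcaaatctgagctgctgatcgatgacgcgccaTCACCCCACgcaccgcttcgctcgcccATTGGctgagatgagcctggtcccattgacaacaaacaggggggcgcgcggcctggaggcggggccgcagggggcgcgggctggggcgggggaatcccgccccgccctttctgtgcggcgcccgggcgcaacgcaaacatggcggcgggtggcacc
ELOVL6: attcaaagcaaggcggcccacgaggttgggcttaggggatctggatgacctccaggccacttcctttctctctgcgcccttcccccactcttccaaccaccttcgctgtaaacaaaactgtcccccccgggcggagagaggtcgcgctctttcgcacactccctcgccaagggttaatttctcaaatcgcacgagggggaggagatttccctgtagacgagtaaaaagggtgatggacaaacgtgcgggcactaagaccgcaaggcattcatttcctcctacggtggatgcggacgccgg
SCD: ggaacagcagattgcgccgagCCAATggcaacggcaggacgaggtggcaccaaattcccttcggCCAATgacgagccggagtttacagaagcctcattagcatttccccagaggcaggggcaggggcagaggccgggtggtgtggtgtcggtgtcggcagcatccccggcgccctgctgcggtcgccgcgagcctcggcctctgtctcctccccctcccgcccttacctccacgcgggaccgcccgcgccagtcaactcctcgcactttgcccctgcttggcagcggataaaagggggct
MYLIP: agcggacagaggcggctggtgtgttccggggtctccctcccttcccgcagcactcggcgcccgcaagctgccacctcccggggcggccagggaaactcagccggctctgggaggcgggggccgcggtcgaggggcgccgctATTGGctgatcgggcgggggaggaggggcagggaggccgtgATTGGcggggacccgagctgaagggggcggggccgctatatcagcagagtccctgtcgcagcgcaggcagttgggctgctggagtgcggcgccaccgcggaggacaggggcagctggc

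Of the 7 genes of fatty acid synthesis and desaturation, 5 fell and 1 rose, or 85.7%, beside 50.4% of all genes. ACLY, which makes cytosolic acetyl-CoA from citrate, had 219.8, 276 and 255 CPM in inhibitor cells, 451, 445 and 442 CPM in Wnt3a cells and 427, 446 and 466 CPM in vehicle cells. Inhibitor libraries were all below the others, and ACLY fell by 0.83 on the log2 scale (SE 0.0963, edgeR adjusted p = 8.76e-05). ACACA, the acetyl-CoA carboxylase that commits carbon to fatty acids, had 47.1, 74.6 and 69.9 CPM in inhibitor cells, 125, 126 and 130.2 CPM in Wnt3a cells and 113, 122 and 131 CPM in vehicle cells. Groups did not overlap, inhibitor replicate 1 was the lowest, and ACACA fell by 0.99 on the log2 scale (SE 0.152, edgeR adjusted p = 0.000448). FASN, the synthase that builds palmitate, had 148, 283 and 325 CPM in inhibitor cells, 374, 506 and 484 CPM in Wnt3a cells and 430.1, 558 and 528 CPM in vehicle cells. Inhibitor replicate 1 was below the other 2 inhibitor libraries, and all 3 were below the rest. FASN fell by 0.85 on the log2 scale (SE 0.249, edgeR adjusted p = 0.0165), and without Wnt3a replicate 2 the edgeR adjusted p was 0.0566.

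ELOVL6, which lengthens palmitate, had 13.9, 11.6 and 12.1 CPM in inhibitor cells, 40.1, 39.6 and 44.4 CPM in Wnt3a cells and 47.1, 38.5 and 47.1 CPM in vehicle cells. No library of inhibitor cells reached the others, and ELOVL6 fell by 1.72 on the log2 scale (SE 0.121, edgeR adjusted p = 5.93e-06). ELOVL6 (ENSG00000170522.9) spans positions 110045846 to 110199199 of chromosome 4 on the minus strand. SCD, which introduces the first double bond, had 205, 252 and 254 CPM in inhibitor cells, 516, 560.3 and 536 CPM in Wnt3a cells and 524, 571 and 566 CPM in vehicle cells. It fell by 1.18 on the log2 scale (SE 0.10, edgeR adjusted p = 1.58e-05), again with no overlap. FADS1, a desaturase of polyunsaturated chains, had 657, 736 and 669 CPM in inhibitor cells, 470.1, 483 and 499 CPM in Wnt3a cells and 513, 491 and 532 CPM in vehicle cells. FADS1 rose by 0.51 on the log2 scale (SE 0.0815, edgeR adjusted p = 0.000614) and was above the other libraries in all 3, but did not pass with log2(TPM + 1), at 0.17 (limma adjusted p = 0.204). FADS2, its partner desaturase, had 581, 930.4 and 898 CPM in inhibitor cells, 871, 880.3 and 953 CPM in Wnt3a cells and 1009, 1012 and 1038 CPM in vehicle cells and a log2 change of -0.17 (SE 0.154, edgeR adjusted p = 0.387). The low value of FADS2 lay in inhibitor replicate 1, and without it the log2 fold change was 0.03. FADS2 passed as lower with library totals alone, at -0.42 (edgeR adjusted p = 0.0312), and with log2(TPM + 1), at -0.67 (limma adjusted p = 0.0121), where the groups did not overlap, at 246 to 409.97 TPM in inhibitor cells against 495 to 583 TPM in Wnt3a cells. FADS1 and FADS2 share exon positions on opposite strands. FADS2 also shares exon positions with FEN1 on the same strand, and reads of that pair may be split between them. FEN1 held 2892, 15596 and 15656 counts over the inhibitor, Wnt3a and vehicle libraries, beside 73973, 115677 and 118215 for FADS2.

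**Figure D3:**
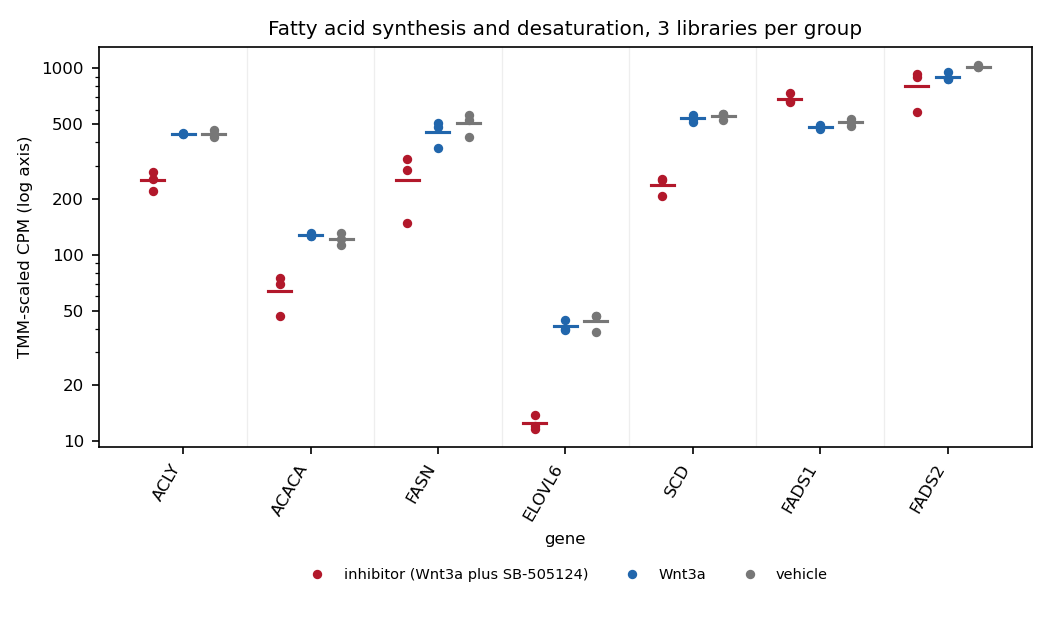
CPM of the 7 fatty acid genes in each library (points, log axis) with the group mean (bars), for inhibitor, Wnt3a and vehicle cells from left to right within each gene. Inhibitor libraries lie below the others for ACLY, ACACA, FASN, ELOVL6 and SCD, and above them for FADS1.

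Of the 5 genes grouped under sterol transport and efflux, NPC1 and MYLIP rose, STARD4 did not pass, and ABCA1 and ABCG1 are given by their counts. NPC1, which exports cholesterol from lysosomes, had 172, 114 and 112 CPM in inhibitor cells, 45.0, 37.7 and 45.1 CPM in Wnt3a cells and 39.8, 35.6 and 42.9 CPM in vehicle cells. Inhibitor replicate 1 was the highest, all 3 were above the other 6, and NPC1 rose by 1.64 on the log2 scale (SE 0.17, edgeR adjusted p = 4.83e-05). NPC1 (ENSG00000141458.12) spans positions 23506184 to 23586898 of chromosome 18 on the minus strand. MYLIP, a ubiquitin ligase for lipoprotein receptors, had 69.9, 72.7 and 67.7 CPM in inhibitor cells, 22.8, 18.4 and 23.7 CPM in Wnt3a cells and 27.1, 23.7 and 26.1 CPM in vehicle cells. Groups were far apart, and MYLIP rose by 1.70 on the log2 scale (SE 0.115, edgeR adjusted p = 5.16e-06). STARD4, a sterol carrier of the cytosol, had 37.5, 20.5 and 21.7 CPM in inhibitor cells, 27.9, 30.9 and 29.4 CPM in Wnt3a cells and 29.8, 20.9 and 27.3 CPM in vehicle cells, with a log2 change of -0.15 (SE 0.221, edgeR adjusted p = 0.598). Without inhibitor replicate 1, STARD4 fell by 0.47 (edgeR adjusted p = 0.0247).

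ABCA1 and ABCG1, which pass sterols to lipoproteins, were close to the limit of detection. ABCA1 had 25, 28 and 33 counts in inhibitor libraries, 7, 14 and 8 in Wnt3a libraries and 7, 11 and 5 in vehicle libraries. It passed the low-count filter through the inhibitor group alone, so that filter favoured a higher value there, and its log2 difference of 2.07 (SE 0.427, edgeR adjusted p = 0.00268) is given as a description only. ABCG1 had 2, 2 and 1 counts in inhibitor libraries, 12, 16 and 8 in Wnt3a libraries and 16, 19 and 5 in vehicle libraries. No group of ABCG1 libraries reached the filter's minimum in all 3, and its log2 difference was -2.27 (SE 0.707, edgeR adjusted p = 0.0217). ABCG1 no longer passed when Wnt3a replicate 1 or 2 or inhibitor replicate 2 or 3 was left out (edgeR adjusted p of 0.0553 to 0.0803). Neither gene passed on the TPM scale or with the length offset. The other 33 genes passed the filter in all 3 groups.

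**Figure D4:**
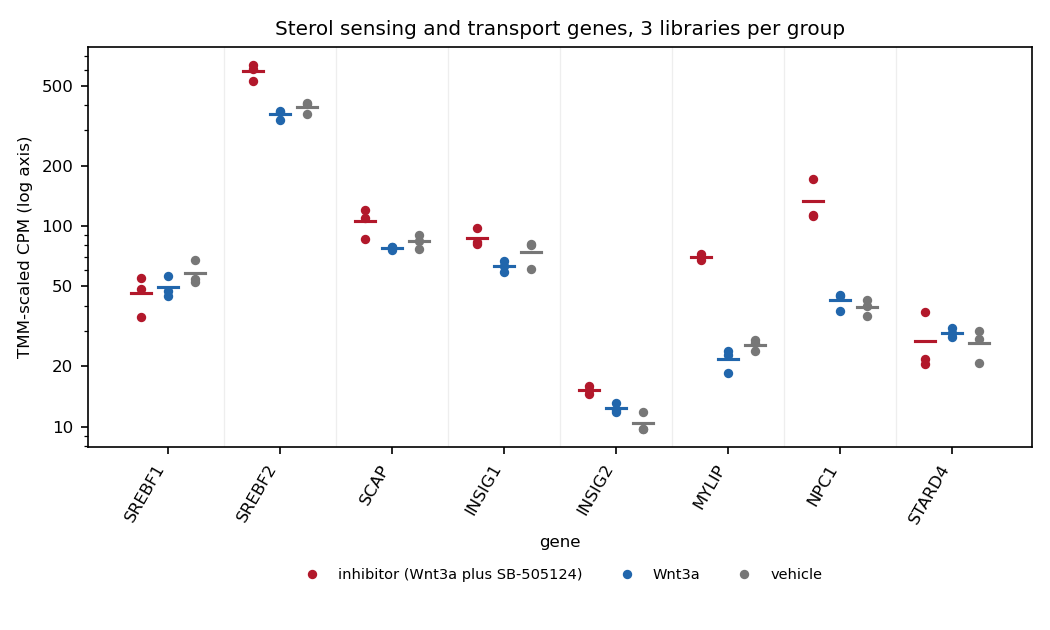
CPM of the 5 SREBP, SCAP and INSIG genes and of MYLIP, NPC1 and STARD4 in each library (points, log axis) with the group mean (bars), for inhibitor, Wnt3a and vehicle cells from left to right within each gene. SREBF2, MYLIP and NPC1 lie higher in all inhibitor libraries, while SREBF1 and STARD4 overlap between groups.

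Per unit of transcript length, the summed level of each role was also compared, a description added after the data were seen. The mevalonate steps summed to 649 ± 13.8 TPM in inhibitor cells, 1192 ± 113 TPM in Wnt3a cells and 1240.3 ± 88.7 TPM in vehicle cells (SD, n = 3 each). Fatty acid genes summed to 741 ± 142 TPM in inhibitor cells, 1205 ± 68.7 TPM in Wnt3a cells and 1219.8 ± 57.0 TPM in vehicle cells. Squalene to sterol steps summed to 1308 ± 4.95 TPM in inhibitor cells, 1455 ± 52.9 TPM in Wnt3a cells and 1578 ± 46.2 TPM in vehicle cells. In each of these 3 roles the inhibitor libraries lay below the other 6. The ratio of inhibitor to Wnt3a sums was -0.88 on the log2 scale for the mevalonate steps, -0.70 for fatty acid genes and -0.15 for squalene to sterol steps. The median of all genes was -0.23 with log2(TPM + 1) and -0.34 with log2(TPM + 0.1). It was -0.05 with log2(TPM + 1) over all genes with a TPM above 0. A median of single genes is not the same measure as a ratio of sums. FDPS made up 59.9% of the difference in the mevalonate sum. Transport genes, with MYLIP counted among them, summed to 94.5 ± 13.4 TPM in inhibitor cells, 45.9 ± 2.69 TPM in Wnt3a cells and 42.4 ± 3.91 TPM in vehicle cells. The inhibitor libraries did not overlap with the rest. The SREBP, SCAP and INSIG genes summed to 268 ± 17.9 TPM in inhibitor cells, 239 ± 19.9 TPM in Wnt3a cells and 246 ± 11.4 TPM in vehicle cells, and these groups overlapped. FDFT1 led the 35 genes in inhibitor cells, at 628 ± 13.3 TPM, while FDPS led in Wnt3a cells, at 625 ± 94.9 TPM, and in vehicle cells, at 639 ± 96.4 TPM, and in both its range overlapped that of FDFT1.

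The number of rises depended on the scale. With library totals alone the median of all genes moved to -0.31 and 7 of the 35 genes rose while 18 fell. With log2(TPM + 1) the median of all genes was -0.23, and 4 genes rose while 17 fell. FDFT1, CYP51A1 and INSIG1 passed on neither scale, with smaller positive values, and SC5D and FADS1 did not pass with log2(TPM + 1). MSMO1, SREBF2, MYLIP and NPC1 passed as higher in all 21 alternatives, and ACAT2, IDI1, FDPS, SQLE, LSS, TM7SF2, NSDHL, HSD17B7, ACLY, ACACA, ELOVL6 and SCD as lower.

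**Figure D5:**
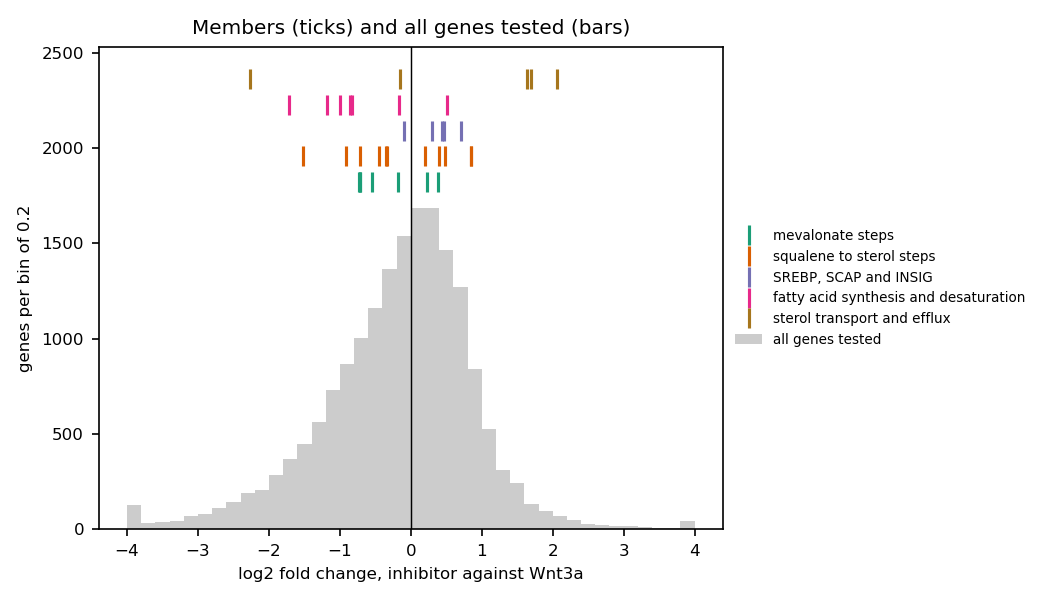
Number of genes tested per bin of 0.2 in log2 fold change, inhibitor against Wnt3a cells (bars), with the 35 genes as ticks by role; values past 4 or -4 are counted in the end bins. Ticks of the fatty acid genes lie mostly left of 0, at a median of -0.85, and those of SREBP, SCAP and INSIG mostly right, at 0.45.

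Effective length, which changes with the transcripts in use, was looked at after the data were seen. It did not overlap between inhibitor and Wnt3a cells for 8 of the 35 genes, 5 shorter and 3 longer with the inhibitor, where 17.5% of all genes did not overlap, 12.9% shorter and 4.62% longer. SCAP was 14.1% longer, FADS2 8.82% longer and MVD 6.36% longer. The length of ELOVL6 changed by -12.1%, that of TM7SF2 by -8.65%, that of INSIG1 by -6.24% and that of IDI1 by -5.38%. That of ABCG1 changed by -69.1%, on the few counts given above.

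Wnt3a alone was then set against vehicle. None of the 35 genes passed, beside 0.419% of all genes, of which 0.397% rose and 0.0224% fell. The median log2 fold change was -0.12 over the 35 genes and 0.01 over all genes. At an unadjusted p under 0.05 there were 4 of the 35, beside 7.62% of all genes, and DESeq2 called 2, DHCR7 and EBP, both lower. DHCR7 had 188, 177 and 192 CPM in Wnt3a cells and 236, 262 and 272 CPM in vehicle cells, with no overlap and a log2 change of -0.47 (SE 0.0943, edgeR adjusted p = 0.0837). Inhibitor replicate 1 is in neither of these groups but enters through the filter, the scaling and the shared estimate of spread. Without that library DHCR7 fell by 0.47 (edgeR adjusted p = 0.0324). EBP had 63.3, 58.1 and 56.7 CPM in Wnt3a cells and 69.5, 82.1 and 73.5 CPM in vehicle cells, a log2 change of -0.34 (SE 0.092, edgeR adjusted p = 0.251). Groups did not overlap for 7 of the 35 genes, beside 17.5% of all genes. Of these 7, PMVK, FDFT1, EBP, DHCR7, FADS2 and MYLIP were lower with Wnt3a and INSIG2 was higher, beside 8.19% and 9.34% of all genes. Where the test did not pass, the 95% intervals still admitted changes, such as -0.70 to 0.40 for FASN and -0.61 to 0.14 for SREBF1.

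Inhibitor cells were also set against vehicle cells, a comparison that shares its inhibitor libraries with the first. Here 27 of the 35 genes passed, beside 49.7% of all genes, 10 higher and 17 lower, beside 25% and 24.8%, and without ABCA1 and ABCG1 25 of 33 passed, 9 higher and 16 lower. Groups did not overlap for 29 genes, beside 58.4% of all genes, and without ABCA1 and ABCG1 for 27 of 33, 10 higher and 17 lower. LSS had a log2 fold change of -1.62 against vehicle and -1.52 against Wnt3a, ELOVL6 of -1.82 and -1.72, and NPC1 of 1.75 and 1.64. Against vehicle, MVD fell by 0.50 on the log2 scale (SE 0.147, edgeR adjusted p = 0.0174) and INSIG2 rose by 0.54 on the log2 scale (SE 0.127, edgeR adjusted p = 0.00521). FDFT1, at 0.17 (SE 0.0781, edgeR adjusted p = 0.0938), and INSIG1, at 0.24 (SE 0.127, edgeR adjusted p = 0.141), did not pass against vehicle. MVD no longer passed without vehicle replicate 2 (edgeR adjusted p = 0.0635), and SCAP, which rose by 0.33 on the log2 scale (SE 0.123, edgeR adjusted p = 0.0477), no longer passed when any library but vehicle replicate 2 or inhibitor replicate 1 was left out (edgeR adjusted p of 0.0608 to 0.177).

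Other genes of sterol and lipid metabolism were counted from lists, of which up to 4 genes each are named by smallest adjusted p. In inhibitor against Wnt3a cells, where 50.4% of all genes passed, 6 rose and 5 fell of 17 further SREBP-linked and acyl chain genes, with a median log2 fold change of -0.06. Among these, ACACB, a second acetyl-CoA carboxylase, fell by 1.29 on the log2 scale (SE 0.252, edgeR adjusted p = 0.00196), and PCYT2, of phosphatidylethanolamine synthesis, fell by 0.59 on the log2 scale (SE 0.122, edgeR adjusted p = 0.00274). TMEM97, a sterol-responsive membrane protein, fell by 0.43 on the log2 scale (SE 0.0864, edgeR adjusted p = 0.00224), while the acetyl-CoA synthetase ACSS2 rose by 0.40 on the log2 scale (SE 0.0803, edgeR adjusted p = 0.00221).

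Of 10 genes that cleave SREBP or degrade sterol-regulated proteins, 3 rose and 5 fell, beside 24.5% and 25.9% of all genes, at a median of -0.28. UBE2G2, a ubiquitin-conjugating enzyme of the endoplasmic reticulum, had 33.3, 28.5 and 32.3 CPM in inhibitor cells, 129.9, 145 and 114 CPM in Wnt3a cells and 120.1, 126 and 112 CPM in vehicle cells. Groups did not overlap, and UBE2G2 fell by 2.05 on the log2 scale (SE 0.114, edgeR adjusted p = 2.83e-06). The ubiquitin ligase RNF145 fell by 1.2 on the log2 scale (SE 0.0817, edgeR adjusted p = 5.2e-06) and the related RNF139 rose by 1.07 on the log2 scale (SE 0.137, edgeR adjusted p = 0.000153). MBTPS1, the protease that makes the first cut in SREBP, fell by 0.62 on the log2 scale (SE 0.0851, edgeR adjusted p = 0.000227).

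Of 8 genes for LXR, its partners and further LXR targets, 3 rose and 2 fell, beside 24.5% and 25.9% of all genes, at a median of 0.17. NR1H2, which encodes LXR-beta, rose by 1.2 on the log2 scale (SE 0.132, edgeR adjusted p = 6.33e-05), and NR1H3, which encodes LXR-alpha, rose by 0.88 on the log2 scale (SE 0.247, edgeR adjusted p = 0.014). The partner receptor RXRA fell by 0.50 on the log2 scale (SE 0.11, edgeR adjusted p = 0.0037), as did SMPDL3A, which fell by 0.86 on the log2 scale (SE 0.247, edgeR adjusted p = 0.0153). Of 13 genes of sterol movement and storage, 6 rose and 1 fell, beside the same shares of all genes, at a median of 0.43. GRAMD1A, a sterol carrier at membrane contacts, rose by 1.25 on the log2 scale (SE 0.101, edgeR adjusted p = 1.26e-05). NPC2, the partner of NPC1 in the lysosome, had 111, 73.4 and 74.4 CPM in inhibitor cells, 32.9, 23.8 and 30.3 CPM in Wnt3a cells and 35.9, 31.2 and 36.3 CPM in vehicle cells and rose by 1.57 on the log2 scale (SE 0.179, edgeR adjusted p = 8.09e-05). OSBP rose by 0.73 on the log2 scale (SE 0.113, edgeR adjusted p = 0.000477) and STARD3 rose by 0.77 on the log2 scale (SE 0.122, edgeR adjusted p = 0.000565), both sterol transfer proteins. In Wnt3a against vehicle cells 0 of the 48 genes of these 4 lists passed with edgeR and 0 with DESeq2, and 4 had an unadjusted p under 0.05 with edgeR, where 7.62% of all genes did.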

How the data were processed

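Polyadenylated RNA of TC32 cells was sequenced in 9 libraries, 3 per group. Per the submitters' processing notes, the tools were CASAVA 1.8.2, Trimmomatic 0.36, RSEM 1.2.31 and STAR 2.5.2a, on hg38. Which annotation was counted is not given in the sources used here. As the tables show per the file headers, the authors deposited for each gene an RSEM expected count, TPM, FPKM and an effective length. FPKM was not used. RSEM shares out reads that fit several genes, so counts of overlapping genes are estimates.

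The 45 second rows of duplicated gene IDs were added to their partners, which took 58278 rows to 58233 gene IDs. Expected counts were rounded. Genes were kept by filterByExpr, scaled by TMM and fitted with the quasi-likelihood test of edgeR 4.0.16 (R 4.3.3, limma 3.58.1), with the 3 groups in 1 model, 2-sided F tests and Benjamini-Hochberg adjustment over 17880 genes at 0.05. The SE was taken from the fold change and F, and the common biological coefficient of variation was 21.5%. Alternatives, 21 in all, used other scalings and filters, DESeq2 1.42.0, limma-voom, log2(TPM + 1) or log2(TPM + 0.1), a length offset, only the 2 groups compared, a replicate block, and each library left out. Pairs of libraries in a group differed by more than sampling noise (chi-square over its degrees of freedom, 7.19 to 64.2).

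The 35 genes and all lists were chosen with earlier results of these data known. Named by rule were all 35 genes, with values in every library for those past the threshold, and up to 4 genes of each other list. Motifs, promoters shown, sums by role and the comparison of lengths were added after the data were seen.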

Additional observations from a re-analysis of the deposited data

How the results depend on the processing

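Of the 27 genes that passed in inhibitor against Wnt3a cells, 16 passed with the same direction in all 21 alternatives and 11 were lost in some, and of the 27 against vehicle 19 passed in all and 8 were lost in some. Of the genes that had not passed, 7 of 8 in inhibitor against Wnt3a cells, 2 of 35 in Wnt3a against vehicle cells and 6 of 8 in inhibitor against vehicle cells passed in some. The count of genes passing in inhibitor against Wnt3a cells ran over 21 to 30. Genes called higher there numbered 11, against 7 with library totals alone and 4 with log2(TPM + 1), log2(TPM + 0.1) and log2(TPM + 1) over all genes with a TPM above 0, and against vehicle 10, against 5 in each of the 3 TPM fits. In Wnt3a against vehicle cells, 75 genes of all passed, 259 with genes of at least 1 count in any library, 299 with DESeq2 and 32 with log2(TPM + 1) over all genes with a TPM above 0, and 20 to 140 when each library was left out; of the 35 genes, 2 passed with DESeq2, both lower, and 0 to 1 when each library was left out. The cause of these shifts was not tested.

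The labels do not say whether replicate numbers pair the libraries. Across groups, deviations of same-numbered libraries correlated at -0.249 to 0.596 and those of other-numbered libraries at -0.647 to 0.436. Between vehicle and Wnt3a cells the same-numbered values were -0.017, 0.596 and 0.557. These ranges overlap and do not decide whether libraries were paired. With the replicate number as a block, 9166 of all genes and 28 of the 35 passed in inhibitor against Wnt3a cells, 79 and 0 in Wnt3a against vehicle cells, and 9039 and 27 in inhibitor against vehicle cells.

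Signs turned under some alternatives for 6 genes in inhibitor against Wnt3a cells, 13 in Wnt3a against vehicle cells and 4 in inhibitor against vehicle cells, and all of these but SCAP had not passed. The cause was not tested. Log2 fold changes follow. In inhibitor against Wnt3a cells, library totals alone gave -0.029 for PMVK and -0.049 for EBP, log2(TPM + 1) with either gene set -0.152 for PMVK, -0.149 for EBP and -0.109 for SCAP, and log2(TPM + 0.1) -0.154 for PMVK, -0.15 for EBP and -0.112 for SCAP. With each library left out, the range was -0.24 to 0.062 for SREBF1, -0.281 to 0.026 for FADS2 and -0.473 to 0.012 for STARD4.

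In Wnt3a against vehicle cells, log2(TPM + 1) with either gene set gave 0.017 for ACAT2, 0.019 for IDI1, 0.015 for LSS, 0.047 for CYP51A1, 0.017 for NSDHL, 0.012 for HSD17B7, 0.014 for SCAP, 0.053 for ACLY, 0.034 for SCD and 0 for FADS1, and log2(TPM + 0.1) 0.017 for ACAT2, 0.019 for IDI1, 0.015 for LSS, 0.047 for CYP51A1, 0.018 for NSDHL, 0.012 for HSD17B7, 0.014 for SCAP, 0.054 for ACLY, 0.035 for SCD and 0 for FADS1. For SC5D, RLE size factors gave -0.007, DESeq2 -0.007 and only the 2 groups compared -0.009. For ACLY, library totals alone gave 0.021, genes of at least 1 count 0.009, genes of at least 1 CPM in 3 libraries 0.005 and the replicate block 0. With each library left out, the range was -0.163 to 0.013 for FDPS, -0.2 to 0.031 for LSS, -0.146 to 0 for HSD17B7, -0.162 to 0.12 for SC5D, -0.027 to 0.031 for ACLY and -0.133 to 0.466 for ABCA1.

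In inhibitor against vehicle cells, library totals alone gave -0.015 for MVK, -0.055 for FDFT1 and -0.189 for STARD4, log2(TPM + 1) with either gene set -0.012 for MVK, -0.023 for FDFT1, -0.096 for SCAP and -0.18 for STARD4, and log2(TPM + 0.1) -0.012 for MVK, -0.023 for FDFT1, -0.098 for SCAP and -0.201 for STARD4. For STARD4, genes of at least 1 CPM in 3 libraries gave -0.005 and limma-voom -0.022, and with each library left out the range was -0.295 to 0.191. Depth limited ABCA1 and ABCG1, with at most 33 counts in a library.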

Other observations

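Of 9 genes tested in the isoprenoid branch, which leads from farnesyl diphosphate to prenyl groups, dolichol and ubiquinone, 4 rose and 2 fell in inhibitor against Wnt3a cells, beside 50.4% of all genes that passed in either direction. IDI2 was too low to be tested. FNTA, a subunit of the enzymes that prenylate proteins, had 264, 230.1 and 213 CPM in inhibitor cells, 142, 129 and 135 CPM in Wnt3a cells and 138, 124 and 131 CPM in vehicle cells. All inhibitor libraries were above the other 6, and FNTA rose by 0.80 on the log2 scale (SE 0.099, edgeR adjusted p = 0.000129). PDSS2 and COQ2, of ubiquinone synthesis, did not overlap between groups either. PDSS2 rose by 1.31 on the log2 scale (SE 0.168, edgeR adjusted p = 0.000157), COQ2 rose by 1.07 on the log2 scale (SE 0.162, edgeR adjusted p = 0.00041) and GGPS1, which makes geranylgeranyl diphosphate, rose by 0.59 on the log2 scale (SE 0.109, edgeR adjusted p = 0.00135).

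Of 15 genes of mitochondrial fatty acid oxidation, 4 rose and 3 fell in the same comparison, beside 24.5% and 25.9% of all genes. Their median log2 fold change was 0.14. SLC25A20, the carnitine carrier, had 13.5, 12.4 and 11.8 CPM in inhibitor cells, 24.5, 26.6 and 23.0 CPM in Wnt3a cells and 23.6, 26.8 and 22.8 CPM in vehicle cells. It fell by 0.98 on the log2 scale (SE 0.115, edgeR adjusted p = 9.65e-05), with inhibitor libraries below all others. ACADM, a dehydrogenase of medium chains, fell by 0.77 on the log2 scale (SE 0.106, edgeR adjusted p = 0.000242), while HADHB rose by 0.81 on the log2 scale (SE 0.125, edgeR adjusted p = 0.000477) and HADHA rose by 0.62 on the log2 scale (SE 0.0989, edgeR adjusted p = 0.00058), the subunits of the trifunctional protein. In Wnt3a against vehicle cells 0 of these 24 genes passed with edgeR and 0 with DESeq2, and 0 had an unadjusted p under 0.05 with edgeR.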
